A study of Mus musculus with 29 samples.

Results

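The 10 genes described here belong to MHC class I antigen display and were measured in the 3 RNA-seq experiments of a study of the microRNA miR-99b-5p in mice. The members were the listed symbols, looked up by Ensembl identifier in the count tables, and all 10 of 10 were found among the 48709 identifiers that each table holds. They are 6 heavy chain genes (H2-K1, H2-D1, H2-Q4, H2-T22, H2-T23 and H2-T24), the light chain gene B2m, the transporter genes Tap1 and Tap2, and Tapbp, which encodes tapasin. In the first experiment, PFC tissue came from male C57BL/6J mice of 3 months injected on both sides with either oligonucleotide, 3 mice with anti-miR-99b and 3 with sc-control, and was collected 5 days later. In the second, primary microglia from CD1 pups at postnatal day 1 were treated for 2 days, giving 4 libraries with anti-miR-99b and 4 with sc-control. In the third, cortical neurons of CD1 embryos, at day 17.5 per the labels, were kept for 48 h in co-culture with treated microglia of CD1 pups at postnatal day 1, where 7 libraries stem from anti-miR-99b and 8 from sc-control microglia. Of the oligonucleotides, both built from locked nucleic acids, anti-miR-99b inhibits miR-99b-5p and sc-control is a scrambled sequence, and lipid nanoparticles carried them. All groups thus received nanoparticles and an oligonucleotide, the microglia had been shaken off mixed glia grown with L929-conditioned medium, and the level of miR-99b-5p was not analysed here.

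Class I molecules display short peptides on the cell surface. Each consists of a heavy chain that spans the membrane and of beta-2 microglobulin. The proteasome cuts proteins in the cytosol, the TAP transporter carries the peptides into the endoplasmic reticulum, and tapasin holds the empty molecule next to the transporter until a peptide is bound. Cytotoxic T cells and natural killer cells read the displayed peptides. In the brain, class I genes are known for low levels in resting neurons, for higher levels in microglia and endothelial cells, and for their response to interferons. They have also been linked to the pruning of synapses.

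The inhibited microRNA is shown with its seed (bases 2 to 8) in capitals, since the seed fixes which letters were looked for in the members. The mature sequence is from RefSeq (GRCm38.p6, chromosome 17, 17830194 to 17830215, plus strand).
mmu-miR-99b-5p: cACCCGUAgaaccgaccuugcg
A match to this seed is the word TACGGGT. No 3' untranslated region of the 10 members held it, against 1.19% of the 21016 protein-coding genes with such a region in GENCODE M21, and 1 member held it in its coding sequence, namely Tap1 (1.62% of all protein-coding genes). No match says only that these letters are not there.

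Promoters of 3 members are shown to set a classical and a non-classical heavy chain beside the light chain. The 250 bases before the RefSeq start site (GRCm38.p6) were searched on both strands for TTTCNNTTC (ISRE-like), GGGATTCCC (kappaB-like), TGACG (CRE-like) and CCAAT. Capitals mark ISRE-like and kappaB-like matches. The H2-K1 stretch is chr17:34000348-34000597 on the minus strand, that of H2-Q4 is chr17:35379367-35379616 on the plus strand, and that of B2m is chr2:122147437-122147686 on the plus strand. All 250 bases of the H2-Q4 stretch lie in exons of the overlapping gene Gm11131.
H2-K1: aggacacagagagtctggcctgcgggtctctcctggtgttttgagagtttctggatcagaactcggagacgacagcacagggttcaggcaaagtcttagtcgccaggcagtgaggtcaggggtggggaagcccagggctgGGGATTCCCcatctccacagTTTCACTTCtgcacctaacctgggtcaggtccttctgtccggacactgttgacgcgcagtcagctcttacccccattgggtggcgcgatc
H2-Q4: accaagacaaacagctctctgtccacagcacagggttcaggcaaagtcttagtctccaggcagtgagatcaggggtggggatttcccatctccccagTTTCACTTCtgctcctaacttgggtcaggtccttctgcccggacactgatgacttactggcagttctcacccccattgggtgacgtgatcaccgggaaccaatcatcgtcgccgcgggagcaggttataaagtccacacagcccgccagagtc
B2m: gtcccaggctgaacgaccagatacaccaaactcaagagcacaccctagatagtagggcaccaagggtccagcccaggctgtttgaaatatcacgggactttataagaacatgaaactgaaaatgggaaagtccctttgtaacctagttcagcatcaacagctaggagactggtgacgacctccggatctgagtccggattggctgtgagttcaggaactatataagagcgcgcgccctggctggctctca
RefSeq windows were found for 8 of the 10 members. The ISRE-like word was in 3 of them (H2-K1, H2-D1 and H2-Q4) and in 6.31% of all 32851 windows. Only this exact spelling was looked for, and a longer one with another T in its last block was not. The lack of a match in B2m, H2-T22 or H2-T23 therefore does not show that ISRE-type letters are absent there. The kappaB-like word was in 2 of the 8 (H2-K1 and H2-D1) and in 0.301% of all windows. Here too only the exact spelling was looked for, and the H2-Q4 stretch holds gggatttccc, the same word with another T. The lack of a match in the other members therefore does not show that kappaB-type letters are absent there. The CRE-like word was in 6 of the 8 (17.8% of all windows) and CCAAT in all 8 (33.8%). RefSeq gives H2-K1 2 start sites, and the stretch shown ends at the upstream site (34000347), before which the kappaB-like word began 110 and the ISRE-like word 90 bases. Before the other site (34000333) they began 124 and 104 bases. A match is a description of letters and not of a bound site.

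PFC libraries held 24482309 to 36475236 counts, microglia libraries 21324156 to 35013400 and co-culture libraries 23269839 to 37901110. The labelled cell types were present by their markers, since 10 microglia markers summed to at least 10360.2 CPM (counts scaled to library size with TMM factors) in every microglia library and 5 neuron markers to at least 5314 CPM in every co-culture. The co-cultures held microglia markers at only 99.8 to 134.4 CPM. Summed lymphocyte markers stayed at or below 4.47 CPM in the PFC and ranged from 0.774 to 1.73 CPM in the microglia libraries. Of the 6 markers, 4 were at 0 counts in all microglia libraries, among them Cd3e, Cd8a and Nkg7. In bulk RNA, fewer cells of a type and less RNA per cell cannot be told apart. Where nothing says that cultures were separate, the p-values measure only the spread between these libraries.

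Per kilobase of exon, the order of the members was led by B2m, H2-D1, H2-K1 and Tapbp in all 3 experiments. In sc-control microglia B2m stood at 1868 ± 76.7 CPM per kb, H2-D1 at 402 ± 24.5, H2-K1 at 179.996 ± 14.3 and Tapbp at 63.8 ± 3.66 (SD, n = 4). The lowest in these cells were H2-T24 at 5.65 ± 0.872 CPM per kb, H2-T23 at 5.56 ± 0.2004 and H2-T22 at 1.76 ± 0.0895, and H2-T24 and H2-T23 did not differ beyond their spread. In sc-control PFC, B2m stood at 180.5 ± 50.8 CPM per kb, H2-D1 at 38.4 ± 11.6, H2-K1 at 22.2 ± 5.99 and Tapbp at 9.71 ± 1.12 (SD, n = 3). H2-T23 at 8.36 ± 0.486 CPM per kb was close to Tapbp there, while the lowest members were H2-Q4 at 2.31 ± 0.636, Tap2 at 2.23 ± 0.1001 and Tap1 at 1.29 ± 0.317. In sc-control co-cultures the lowest were H2-T22 at 0.638 ± 0.129 CPM per kb, H2-T23 at 0.274 ± 0.0412 and H2-T24 at 0.246 ± 0.0506 (SD, n = 8), the last 2 within each other's spread. H2-T23 and H2-T24 had only 16 to 31 and 8 to 29 counts per co-culture library.

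**Figure D1:**
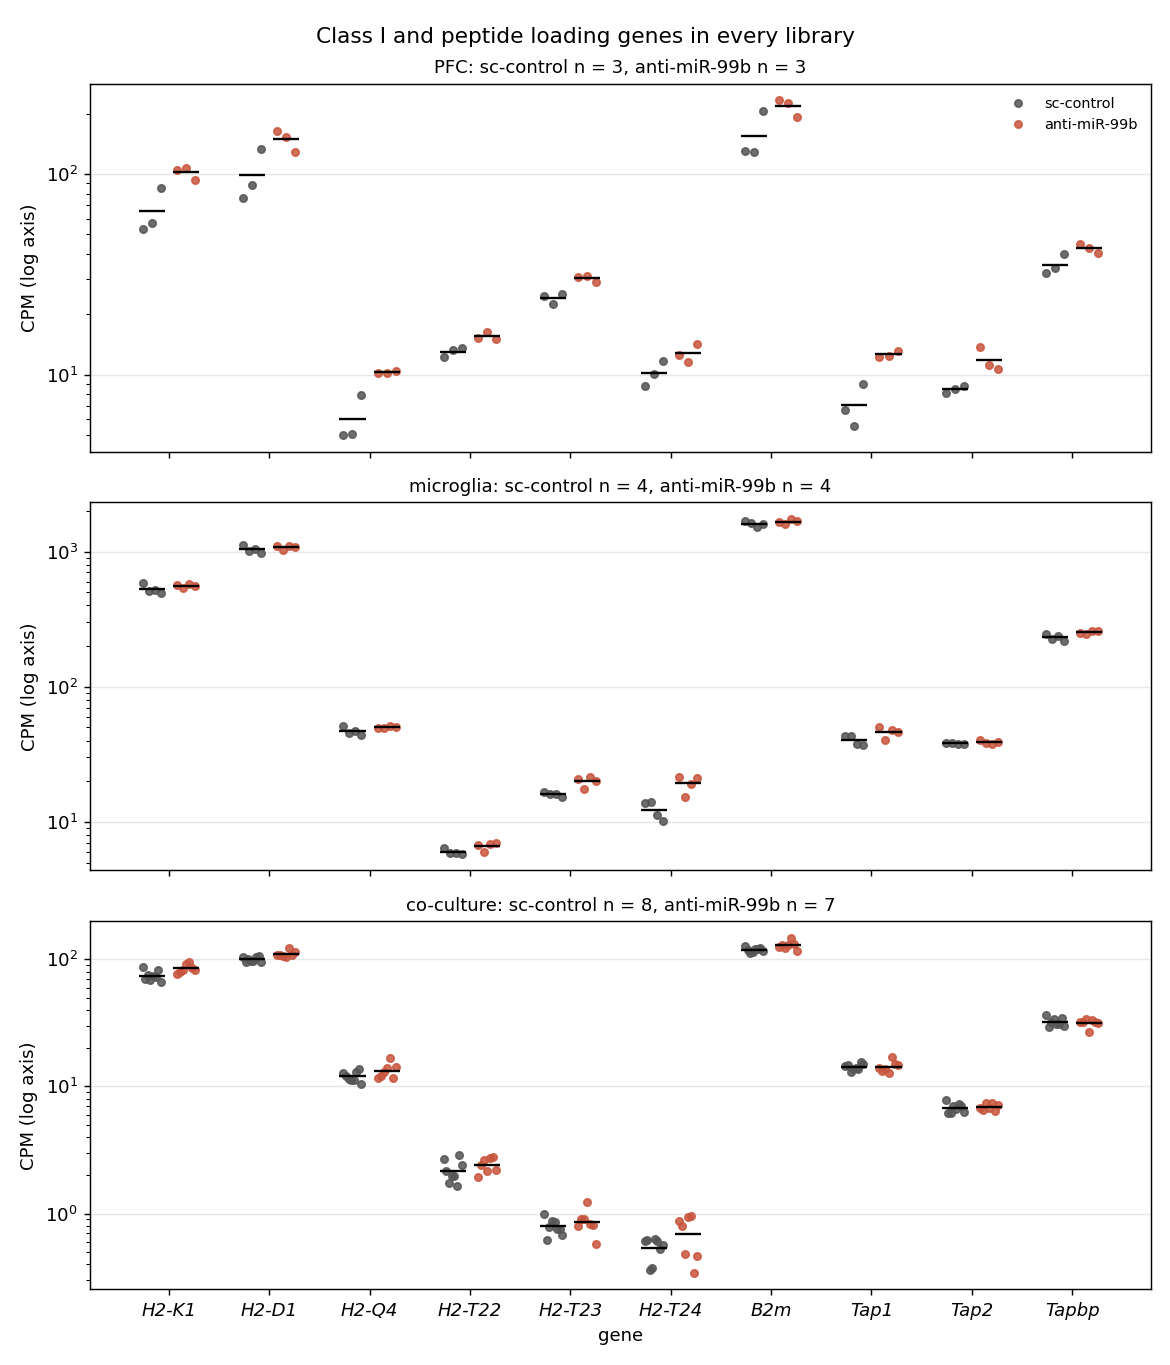
CPM of the 10 genes (log axis) in every library of the 3 experiments, with 1 point per library, sc-control in grey, anti-miR-99b in red and black lines at the group means. In the PFC the grey points spread widely, and the sc-control library that is highest for H2-D1 (133.1 CPM) lies above the lowest anti-miR-99b library (129.1 CPM).

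Reads shared between paralogs limit each single heavy chain value. H2-D1 and H2-K1 carried most heavy chain counts in each experiment, as the stacked shares show. H2-D1 made up 42.98% of the summed counts of 19 class I heavy chain genes in PFC libraries, 57.8% in microglia and 45.2% in co-cultures, and H2-K1 29.04%, 29.7% and 34.2%. H2-T23 contributed 9.53% in PFC libraries, 0.990% in microglia and 0.354% in co-cultures. Of the 50-base words in its transcripts, H2-T22 (chromosome 17, 36037128 to 36042747, minus strand) shared 53.5% with other genes, mostly H2-T10 (31.2%) and the antisense gene A930015D03Rik (26.5%). H2-Q4 (35379617 to 35385290, plus strand) shared 36.4%, Tapbp 23.2%, H2-T23 14.5%, H2-D1 12.8%, Tap2 11.6%, H2-K1 9.63%, Tap1 3.33% and H2-T24 3.17%, while B2m (chromosome 2, 122147686 to 122153083) shared 0. The words of Tapbp and Tap2 were mostly shared with genes on the opposite strand (Gm19412 and Gm15821), and the strand setting of the counting is not stated.

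**Figure D2:**
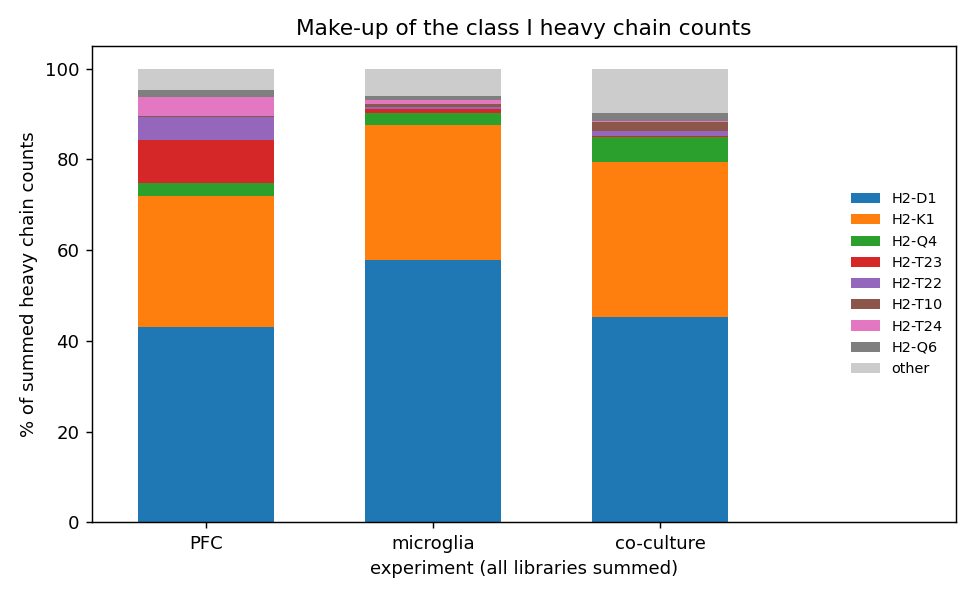
Share of each gene in the summed counts of 19 class I heavy chain genes, with all libraries of an experiment added up, in percent. H2-D1 and H2-K1 form most of each bar, and H2-T23 takes 9.53% in the PFC against 0.354% in the co-cultures.

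The comparison in the PFC asked which genes differed in brain tissue when miR-99b-5p was inhibited. All 10 members had a log2FC above 0 and an unadjusted p under 0.05, but 0 of 10 passed the threshold (adjusted p under 0.1 and log2FC beyond 0.2, edgeR's quasi-likelihood test). Over all 17364 genes tested, 0.0864% were called higher and 0% lower, 897 genes had an unadjusted p under 0.05 with a higher level, and the median log2FC was 0.00 against 0.49 for the members. DESeq2 called 3 members (H2-K1, H2-Q4 and Tap1), and 76 genes higher and 8 lower of 21575. In 7 of the 10 members every anti-miR-99b library lay above every sc-control library, which held for 7.52% of all genes tested. With 3 mice against 3 the smallest p of an exact permutation test is 0.1.

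H2-K1 and H2-D1 encode the classical heavy chains that present peptides to cytotoxic T cells. H2-K1 (chromosome 17, 33996017 to 34000347, minus strand) was at 105.4, 107.9 and 93.3 CPM in the 3 mice given anti-miR-99b and at 53.2, 57.2 and 85.5 CPM in those given sc-control, and the groups did not overlap. Its log2FC was 0.65 (SE, its standard error, 0.15; edgeR adjusted p = 0.324; two-sided exact permutation p = 0.1). H2-D1 (35262730 to 35267499, plus strand) was at 164.6, 153.5 and 129.1 CPM against 76.4, 88.0 and 133.1 CPM, so that sc-control replicate 4 exceeded the lowest anti-miR-99b library. Its log2FC was 0.59 (SE 0.18, edgeR adjusted p = 0.518; two-sided exact permutation p = 0.2).

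The non-classical heavy chains are less variable between individuals and are found in fewer cell types. H2-Q4, of the Qa region, was at 10.2, 10.2 and 10.46 CPM against 5.00, 5.07 and 7.89 CPM, without overlap, a log2FC of 0.78 (SE 0.17, edgeR adjusted p = 0.271). H2-T23 encodes Qa-1, a ligand of natural killer cell receptors. Its levels were 30.8, 30.9 and 28.97 CPM against 24.6, 22.6 and 25.3 CPM, without overlap (log2FC 0.32, SE 0.08, edgeR adjusted p = 0.312). H2-T22, which gamma delta T cells can bind, was at 15.3, 16.2 and 15.1 CPM against 12.2, 13.2 and 13.6 CPM, also without overlap (log2FC 0.26, SE 0.09, edgeR adjusted p = 0.606). H2-T24 was at 12.5, 11.6 and 14.2 CPM against 8.80, 10.0 and 11.7 CPM, and the groups overlapped (log2FC 0.33, SE 0.13, edgeR adjusted p = 0.648).

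The light chain and the loading machinery also had higher means with anti-miR-99b. B2m was at 233.7, 227.9 and 193.7 CPM with anti-miR-99b and at 130.9, 129.1 and 205.6 CPM with sc-control. Only sc-control replicate 4 reached into the other group, and the log2FC was 0.49 (SE 0.16, edgeR adjusted p = 0.587; two-sided exact permutation p = 0.2). Tap1 (chromosome 17, 34187553 to 34197225, plus strand), one chain of the peptide transporter, had the largest log2FC of the 10 members in the PFC, 0.83 (SE 0.16, edgeR adjusted p = 0.180). It was at 12.2, 12.4 and 13.1 CPM against 6.67, 5.53 and 8.94 CPM, without overlap. Tap2 (34203527 to 34216321, plus strand), the other chain, was at 13.7, 11.2 and 10.7 CPM against 8.04, 8.49 and 8.80 CPM, without overlap (log2FC 0.48, SE 0.12, edgeR adjusted p = 0.324). Tapbp was at 45.0, 42.96 and 40.3 CPM against 32.03, 33.9 and 39.8 CPM, without overlap but with replicate 4 of sc-control close to the lowest treated mouse (log2FC 0.28, SE 0.09, edgeR adjusted p = 0.587).

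Sc-control replicate 4 was the highest sc-control library for all 10 members. Its 10 members summed to 540.1 CPM, against 357.8 and 373.2 CPM in the other sc-control mice and 548.95 to 643.3 CPM in the treated mice. The sum of 10 microglia markers put this library beside the treated mice too, with 569.7 CPM in sc-control replicate 4, 441.6 and 428.7 CPM in the other sc-control mice and 541.5, 594.8 and 555.1 CPM in the treated mice. Of these markers 0 of 10 passed the threshold and 4 had an unadjusted p under 0.05 with a higher level, and their median log2FC was 0.26. Astrocyte markers also set this library apart from the other sc-control mice. Their 5 genes summed to 1392 CPM in sc-control replicate 4, above the 1306 to 1346 CPM of the treated mice. The other sc-control mice had 1099 and 1117 CPM, and 0 of 5 genes were called, with 1 at an unadjusted p under 0.05. The part of either list in the members' values was not tested. Without sc-control replicate 4, 5 of 10 members were called (H2-K1, H2-D1, H2-Q4, B2m and Tap1), with a log2FC of 1.04 for Tap1 (edgeR adjusted p = 0.00844), while over all 17630 genes tested in that fit the calls went from 15 to 195 higher and from 0 to 6 lower. Without any other single mouse 0 members were called, and 1 to 31 genes higher over all genes.

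That library was sequenced in lane 7 with anti-miR-99b replicate 3, and the other 4 in lane 6. Within lane 6 all 10 members were higher with anti-miR-99b, at a median log2 ratio of 0.71 (2 mice against 2). Within lane 7, with 1 mouse against 1, 8 were higher and the median was 0.17, with ratios of −0.04 for H2-D1 and −0.09 for B2m. With the lane as a block, 2 members were called (H2-Q4 and Tap1), and 73 genes higher and 4 lower of 17364.

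**Figure D3:**
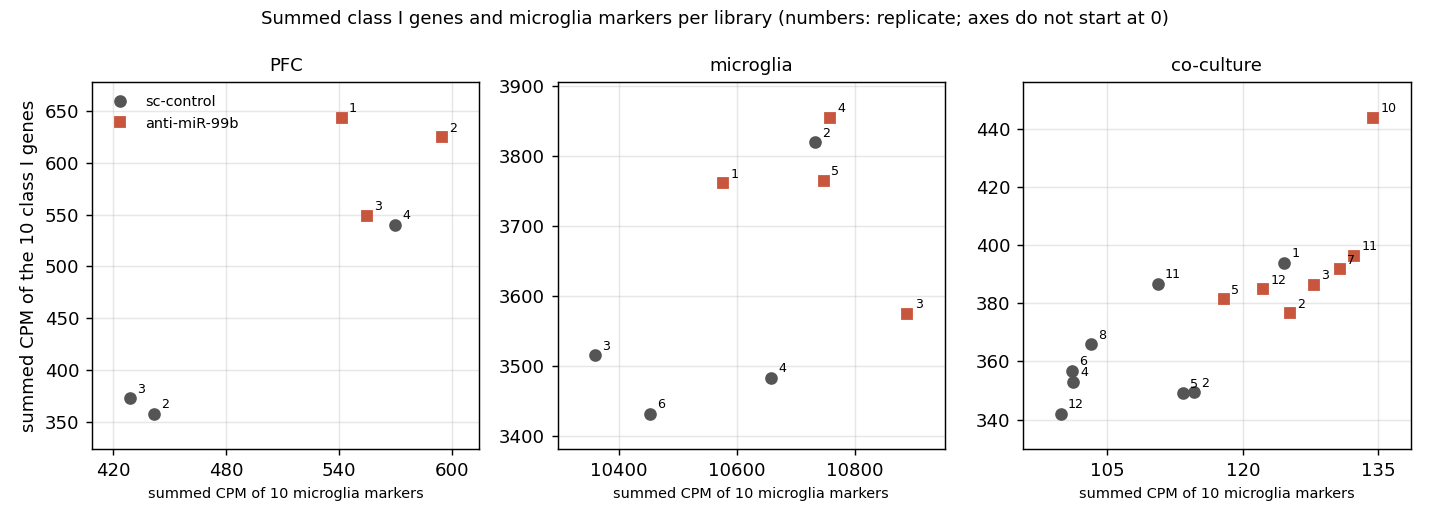
Summed CPM of the 10 class I genes (vertical axis) against the summed CPM of 10 microglia markers (horizontal axis) in each library of each experiment, with the replicate number beside each point and axes that do not start at 0. In the PFC sc-control replicate 4 lies at 569.7 CPM of markers and 540.1 CPM of class I genes, beside anti-miR-99b replicate 3 and away from the other sc-control mice.

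Other genes of the pathway in the PFC were read from lists. Of 20 other class I genes 12 were tested, 0 were called and 4 had an unadjusted p under 0.05 with a higher level (median log2FC 0.19). The smallest p was that of H2-K2, at 2.44 ± 0.607 against 1.13 ± 0.376 CPM (SD, n = 3 each), a log2FC of 1.09 (SE 0.27, edgeR adjusted p = 0.350). Of 9 regulators of class I genes 0 were called and 5 had an unadjusted p under 0.05 (median log2FC 0.35). The smallest was that of Stat2, a signal transducer of type I interferon, at 51.6 ± 2.52 against 39.1 ± 3.47 CPM (log2FC 0.40, SE 0.08, edgeR adjusted p = 0.234). All 5 genes of the immunoproteasome, which cuts peptides suited to class I grooves, were tested and 0 called, with 3 at an unadjusted p under 0.05. Psmb9, which overlaps Tap1 by 212 bases on the opposite strand, had the smallest p (log2FC 0.61, SE 0.15, edgeR adjusted p = 0.352).

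Of 8 loading chaperones 0 were called, 0 had an unadjusted p under 0.05 and 2 had a log2FC above 0 (median −0.06). The smallest p among them was that of Hspa5, the chaperone BiP, at 323.4 ± 1.71 against 362.4 ± 55.8 CPM (log2FC −0.16, SE 0.10, edgeR adjusted p = 0.690). Of 7 receptors of class I molecules only Pirb and Klrk1 had enough counts to be tested, and 0 had an unadjusted p under 0.05. Pirb, an inhibitory receptor of myeloid cells, was at 1.60 ± 0.277 against 1.21 ± 0.333 CPM (log2FC 0.39, SE 0.24, edgeR adjusted p = 0.690).

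The microglia comparison asked which genes respond in these cells in culture. H2-T24 and H2-T23 rose, and they were the 2 of 10 members past the threshold (adjusted p under 0.1 and log2FC beyond 0.1, edgeR), while 0 fell. Over all 14953 genes tested 0.435% were called higher and 0.0535% lower. All 10 members had a log2FC above 0, with a median of 0.12 against 0.00 over all genes, and 5 had an unadjusted p under 0.05. Over all genes 509 had an unadjusted p under 0.05 with a higher level. The groups did not overlap in 2 members, against 1.65% of all genes tested.

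H2-T24 was at 21.5, 15.3, 19.1 and 21.2 CPM with anti-miR-99b and at 13.7, 14.1, 11.3 and 10.2 CPM with sc-control. No library of one group reached into the other, and the log2FC was 0.66 (SE 0.10, edgeR adjusted p = 0.00678; two-sided exact permutation p = 0.0286, the smallest possible). H2-T23 was at 20.8, 17.6, 21.3 and 19.9 CPM against 16.7, 16.1, 16.1 and 15.3 CPM, again without overlap (log2FC 0.32, SE 0.06, edgeR adjusted p = 0.0238; two-sided exact permutation p = 0.0286). Without anti-miR-99b replicate 1, 4 or 5 or sc-control replicate 6, H2-T24 alone was called, and without sc-control replicate 4 neither was (edgeR adjusted p = 0.106 for H2-T24 and 0.167 for H2-T23). Over all genes, the fits that called H2-T24 alone gave 11, 28, 2 and 6 higher in that order, and 3 lower each. Without sc-control replicate 4, 0 of 15145 genes were called higher and 2 lower. Without sc-control replicate 2, 7 members were called, and 234 genes higher and 175 lower of 15139, against 65 and 8 with all libraries.

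The other 8 members did not pass the threshold in the microglia. Tap1 was at 50.4, 40.7, 47.7 and 46.4 CPM against 43.2, 43.3, 37.6 and 36.9 CPM (log2FC 0.21, SE 0.06, edgeR adjusted p = 0.224), and anti-miR-99b replicate 3 lay among the sc-control libraries. Tapbp was at 249.5, 244.8, 257.2 and 258.4 CPM against 247.6, 224.9, 235.7 and 217.0 CPM (log2FC 0.13, SE 0.03, edgeR adjusted p = 0.187). H2-Q4 had a log2FC of 0.10, H2-T22 one of 0.15 and Tap2 one of 0.03, with edgeR adjusted p of 0.655, 0.815 and 0.948.

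The most abundant heavy chains and B2m had a log2FC of 0.05 to 0.08. H2-K1 was at 569.6, 534.2, 578.1 and 557.1 CPM against 589.1, 510.6, 523.1 and 492.5 CPM (log2FC 0.08, SE 0.04, edgeR adjusted p = 0.772). H2-D1 was at 1099, 1030.1, 1099.8 and 1088 CPM against 1123, 1001, 1039 and 979.5 CPM, with full overlap (log2FC 0.06, SE 0.04, edgeR adjusted p = 0.863). B2m was at 1666 ± 57.1 against 1607 ± 66.0 CPM (log2FC 0.05, SE 0.03, edgeR adjusted p = 0.868). Sc-control replicate 2 was the highest sc-control library for 8 of the 10 members and anti-miR-99b replicate 3 the lowest of its group for 8. Each lane held 2 libraries of each group. In lane 5, 9 of 10 members were higher with anti-miR-99b and in lane 6 all 10, with a log2 ratio of 0.40 and 0.91 for H2-T24 and of 0.23 and 0.39 for H2-T23.

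Among the regulators of class I genes in the microglia, Stat2 rose from 78.2 ± 8.12 to 97.6 ± 12.9 CPM (SD, n = 4 each; log2FC 0.33, SE 0.07, edgeR adjusted p = 0.0405). Of 20 other class I genes 15 were tested and 0 called, with 6 at an unadjusted p under 0.05 and the smallest p at H2-Q2 (log2FC 0.27, SE 0.07, edgeR adjusted p = 0.120). Of the 5 immunoproteasome genes 0 were called and 3 had an unadjusted p under 0.05, and Psmb8 had the smallest (log2FC 0.11, SE 0.04, edgeR adjusted p = 0.649). Of 8 chaperones 0 were called and 0 had an unadjusted p under 0.05, and the smallest p was that of Uggt1, a folding sensor (log2FC −0.04, edgeR adjusted p = 0.880). Of 7 receptors 2 were tested, 0 called and 0 at an unadjusted p under 0.05, the smallest p being that of Klra2 (log2FC 0.10, edgeR adjusted p = 0.934). Microglia markers summed to 10577.5 to 10889 CPM against 10360.2 to 10732 CPM with 0 of 10 called and 0 at an unadjusted p under 0.05. Oligodendrocyte markers summed to 118.5 to 127.2 CPM with anti-miR-99b and to 127.2 to 143.3 CPM with sc-control. Of their 4 genes 1 was called lower and 4 had an unadjusted p under 0.05 with a lower level (median log2FC −0.30). The part of these markers in the members' values was not tested.

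In the co-cultures, which asked what treated microglia change in a neuronal culture, H2-D1 rose and was the 1 of 10 members past the threshold (adjusted p under 0.05 and log2FC beyond 0.1, edgeR), and 0 fell. Over all 16193 genes tested 0.846% were called higher and 0.556% lower. The median log2FC of the members was 0.12 against 0.00 over all genes, 9 of 10 were above 0 and 3 had an unadjusted p under 0.05. Over all genes 1036 had an unadjusted p under 0.05 with a higher level. In 0 members did every anti-miR-99b library lie above every sc-control library, against 0.303% of all genes.

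H2-D1 ranged from 104.6 to 122.8 CPM with a median of 108.1 with anti-miR-99b and from 94.5 to 106.5 CPM with a median of 98.8 with sc-control. Of the 7 treated libraries 5 lay above all 8 sc-control libraries, and the log2FC was 0.14 (SE 0.03, edgeR adjusted p = 0.0314; two-sided exact permutation p = 0.00155). H2-K1 ranged from 76.1 to 95.2 CPM (median 82.6) against 65.7 to 87.0 CPM (median 73.4), and 2 treated libraries lay above all others. Its log2FC was 0.18 (SE 0.05, edgeR adjusted p = 0.0744; two-sided exact permutation p = 0.0152). B2m ranged from 116.5 to 146.9 CPM (median 129.96) against 112.9 to 126.6 CPM (median 119.0), a log2FC of 0.12 (SE 0.04, edgeR adjusted p = 0.113; two-sided exact permutation p = 0.0146).

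Neither transporter gene differed beyond the spread of the co-cultures. Tap1 was at 14.3 ± 1.44 against 14.3 ± 0.860 CPM (SD, n = 7 and 8; log2FC 0.01, SE 0.05) and Tap2 at 6.91 ± 0.409 against 6.79 ± 0.579 CPM (log2FC 0.03, SE 0.06). Tapbp was at 31.7 ± 2.27 against 32.3 ± 2.49 CPM (log2FC −0.03, SE 0.05, edgeR adjusted p = 0.864). H2-Q4 was at 13.3 ± 1.81 against 12.0 ± 1.12 CPM (log2FC 0.14, SE 0.07, edgeR adjusted p = 0.394). The low H2-T22, H2-T23 and H2-T24 had a log2FC of 0.13, 0.11 and 0.38 with SEs of 0.12, 0.15 and 0.21.

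The call of H2-D1 in the co-cultures was close to its limit. Leaving out 1 library at a time, it was called in 7 of 15 fits, with a log2FC of 0.11 to 0.16 and an edgeR adjusted p of 0.0110 to 0.0782. It was lost without anti-miR-99b replicate 3, 10 or 11 and without sc-control replicate 2, 4, 5, 6 or 12. Over all genes those fits called 89 to 124 higher and 49 to 70 lower, against 137 and 90 with all libraries. The fits that kept the call gave 90 to 159 higher and 58 to 141 lower. With the lane as a block the log2FC was 0.13 (edgeR adjusted p = 0.0952) and 0 members were called, while within lanes 4, 5, 6 and 7, which held 1 to 3 libraries of a group each, its log2 ratio was 0.11, 0.11, 0.01 and 0.20.

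Microglia markers moved with the groups in the co-cultures. The 10 markers summed to 117.9 to 134.4 CPM (median 127.9) with anti-miR-99b and to 99.8 to 124.6 CPM (median 106.9) with sc-control, and Csf1r, Cx3cr1, Trem2 and C1qa rose, 4 of 10. Csf1r, the receptor that microglia need to survive, rose by a log2FC of 0.34 (SE 0.05, edgeR adjusted p = 0.00101). Neuron markers summed to 5359 to 5442 CPM against 5314 to 5598 CPM with 0 of 5 called and 0 at an unadjusted p under 0.05. The part of the microglia markers in the members' values was not tested.

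Of 20 other class I genes 16 were tested in the co-cultures and H2-Q7 rose, from 0.931 ± 0.219 to 1.43 ± 0.261 CPM (SD, n = 8 and 7; log2FC 0.58, SE 0.15, edgeR adjusted p = 0.0433). H2-Q7 shared 26.5% of its 50-base words with other genes and had 16 to 52 counts per library. Of 9 regulators 0 were called and 1 had an unadjusted p under 0.05, namely Stat2 (log2FC 0.11, SE 0.03, edgeR adjusted p = 0.0878). Of 5 immunoproteasome genes 0 were called and 1 had an unadjusted p under 0.05, namely Psme2, an activator subunit (log2FC 0.15, SE 0.06, edgeR adjusted p = 0.243). Of 8 chaperones 0 were called, 1 had an unadjusted p under 0.05 with a higher and 2 with a lower level, and Uggt1 had an edgeR adjusted p of 0.0366 with a log2FC of −0.09 that stayed within the limit of 0.1. All 7 treated libraries lay below all 8 sc-control libraries for Uggt1, which held for 45 of the 16193 genes tested. Pirb was the 1 receptor tested (log2FC −0.04, unadjusted p = 0.728 and adjusted p = 0.923 by edgeR).

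**Figure D4:**
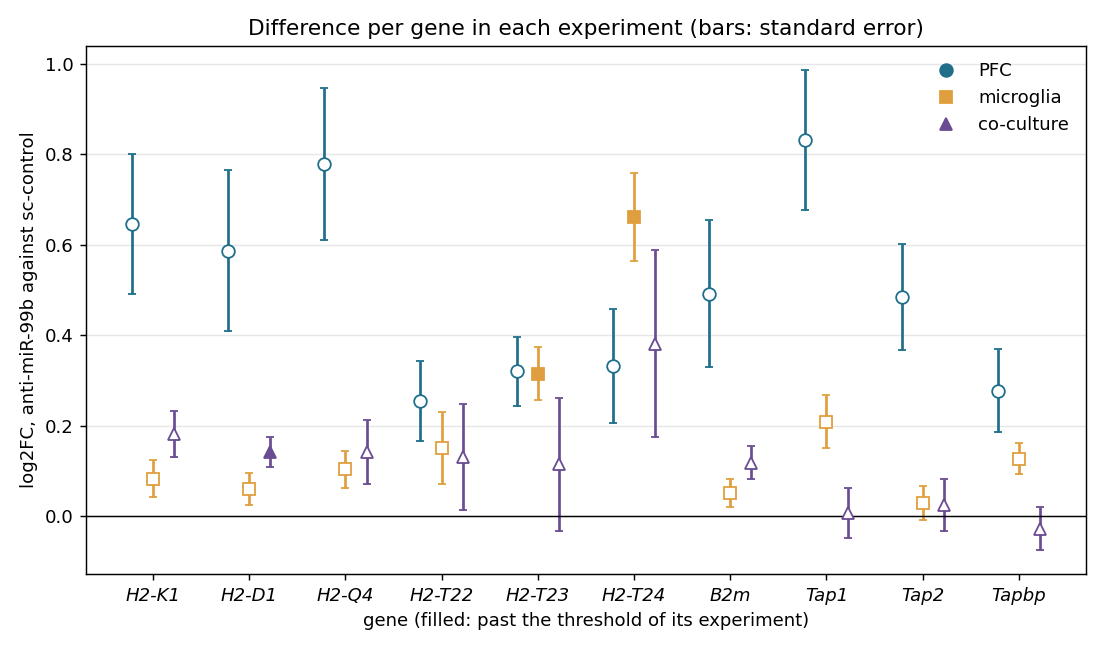
Log2FC of anti-miR-99b against sc-control for the 10 genes in each experiment, with the standard error as bars and filled symbols for genes past the threshold of that experiment. The PFC values run from 0.26 to 0.83 and none is filled, the filled microglia symbols are H2-T23 and H2-T24, and the filled co-culture symbol is H2-D1.

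Counting 19 class I heavy chain genes as 1 keeps reads that these genes exchange. It does not keep reads that the counting dropped or gave to genes outside the sum. The merged count of 19 genes in the PFC was 361.1, 355.95 and 311.2 CPM against 194.2, 209.2 and 295.7 CPM, without overlap, a log2FC of 0.56 (SE 0.14, edgeR adjusted p = 0.362; two-sided exact permutation p = 0.1). Without sc-control replicate 4 it was 0.76 (edgeR adjusted p = 0.00985). In the microglia the merged count was 1881 ± 60.4 against 1779 ± 119.6 CPM (log2FC 0.08, SE 0.04, edgeR adjusted p = 0.770), and without sc-control replicate 2 the log2FC was 0.13 (edgeR adjusted p = 0.00865). In the co-cultures the merged count rose from 220.0 ± 14.0 to 245.5 ± 15.0 CPM (log2FC 0.16, SE 0.04, edgeR adjusted p = 0.0334; two-sided exact permutation p = 0.00497). With the lane as a block this was 0.14 (edgeR adjusted p = 0.106), and it was called in 7 of the 15 fits that left out 1 library.

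Whether the differences themselves differed between experiments was tested in 1 fit of all 29 libraries. Between PFC and microglia 5 of 10 members were called at an adjusted p under 0.1 (0.933% of 18963 genes). These were H2-K1, H2-D1, H2-Q4, Tap1 and Tap2, with a difference of log2FC (PFC minus microglia) of 0.43 to 0.66. Tap1 differed by 0.60 (SE 0.14, edgeR adjusted p = 0.0346) and Tap2 by 0.43 (SE 0.10, edgeR adjusted p = 0.0294). H2-T24, the member with the largest log2FC in the microglia, differed by −0.34 (SE 0.17, edgeR adjusted p = 0.414), and H2-T23 by −0.01 (SE 0.09).

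Between PFC and co-cultures 6 of 10 members were called (1.95% of genes), the same 5 and Tapbp. The difference of log2FC was 0.82 for Tap1 (SE 0.13, edgeR adjusted p = 0.000828) and 0.31 for Tapbp (SE 0.09, edgeR adjusted p = 0.0890). Between microglia and co-cultures 0 of 10 were called (0.116% of genes), with 2 (Tap1 and Tapbp) at an unadjusted p under 0.05. The fit of 6 groups gave all experiments 1 estimate of the spread, on which these p-values rest. Even the closest PFC libraries of a group differed more from each other than the closest libraries in the cultures. Fitted on the 4 groups compared alone, 0 members were called between PFC and microglia (edgeR adjusted p = 0.131 for H2-Q4) and 3 between PFC and co-cultures (H2-Q4, Tap1 and Tap2). The share of all genes that the fits of 4 groups called was not counted, so these member counts have no background to be set against. Strain, age and tissue differ between the experiments and cannot be told apart.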

How the data were processed

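The authors prepared TruSeq libraries of polyadenylated RNA, sequenced single reads of 50 bases, converted and checked them with bcl2fastq 2.20.2 and FastQC 0.11.5, aligned them with STAR 2.5.2b to mm10 and counted them per gene with featureCounts 1.5.1, per the labels. The deposited values are the raw count of reads per gene in 29 libraries, without normalization. The strand setting and annotation release are not given in the sources used here. The reference is of strain C57BL/6J, class I genes vary between strains, and how reads of CD1 alleles were assigned was not tested.

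Each experiment was fitted alone in R 4.3.3 with edgeR 4.0.16 (filterByExpr, TMM, quasi-likelihood test, no covariate), with p-values adjusted by Benjamini-Hochberg over all genes tested. The standard error of a log2FC is its size over the square root of F. Levels are mean ± SD in CPM. For each member the mean CPM of the groups was also compared by exact permutation. The thresholds of the PFC and the co-cultures follow the study's methods, and that of the microglia was set here. The fit was tested on simulated data. Symbols, coordinates, exon lengths and shared 50-base words come from GENCODE M21 (GRCm38), which gave 48349 identifiers a symbol. Seed matches were counted over protein-coding transcripts, and promoters come from RefSeq tables.

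The members, the lists and the rule for named genes (all members, and of each list every gene past the threshold and the smallest p) were chosen with earlier results of these data known. The list of other class I genes names H2-Q8 and H2-Q9, which no identifier matched. Every column was matched to a sample by library name. Alternatives were DESeq2 1.42.0, RLE and upper-quartile factors, no filter or 10 counts in every library, 1 RUVs factor, lane or replicate number as a block, other thresholds and each library left out. Libraries of a group differed by more than sampling noise, so each was counted as 1 sample. The chi-square per degree of freedom was at least 6.93 in the PFC, 1.58 in microglia and 1.44 in co-cultures. Intervals of counting error were not needed, since all values have replicates. Some listed genes past a threshold are not reported here.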

Additional observations from a re-analysis of the deposited data

Results flagged for a closer look

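In 3 of 44 combinations of a group of 4 to 10 libraries with a member or the merged heavy chain count, 1 library lay far from the others by Dixon's criterion, which chance alone gives in about 1 of 20 groups. H2-D1 in microglia with anti-miR-99b was at 1030.1 CPM in replicate 3, while the nearest of the other libraries was at 1088 CPM. H2-T22 in sc-control microglia was at 6.46 CPM in replicate 2, with the next library at 5.89 CPM. Tapbp in co-cultures with anti-miR-99b was at 26.9 CPM in replicate 7 and at 31.5 CPM or more in all others.

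In the fit of 6 groups with 1 shared estimate of the spread, the anti-miR-99b effect was called different between PFC and microglia for 5 members. The difference of log2FC, PFC minus microglia, was 0.54 for H2-K1 (edgeR adjusted p = 0.0593), 0.51 for H2-D1 (0.0786), 0.66 for H2-Q4 (0.0362), 0.60 for Tap1 (0.0346) and 0.43 for Tap2 (0.0294). Against the co-cultures it differed for 6 members, by 0.47 for H2-K1 (edgeR adjusted p = 0.0684), 0.45 for H2-D1 (0.0699), 0.64 for H2-Q4 (0.0304), 0.82 for Tap1 (0.000828), 0.46 for Tap2 (0.0172) and 0.31 for Tapbp (0.0890). Fitted on the 4 groups compared alone, 0 members were called for PFC minus microglia and 3 for PFC minus co-culture (H2-Q4, Tap1 and Tap2), while the calls over all genes were not counted. These comparisons share the PFC libraries, and strain and tissue cannot be told apart in them.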

How the results depend on the processing

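In the PFC 0 members were called in the fit reported above, 3 by DESeq2, 1 with upper-quartile factors, 6 without a filter, 5 with an RUVs factor, 2 with the lane as a block, and 0 to 5 when 1 library was left out. Over all genes DESeq2 called 76 higher and 8 lower, upper-quartile factors gave 25 and 0, no filter 297 and 115, the RUVs factor 192 and 92, and the lane block 73 and 4, against 15 and 0. For microglia DESeq2 called 35 and 5 genes, no filter 138 and 29 and the RUVs factor 118 and 42, against 65 and 8. For co-cultures DESeq2 called 152 and 129, no filter 191 and 99, the lane block 85 and 36 and the RUVs factor 284 and 236, against 137 and 90. In the microglia no filter and the RUVs factor each gave 4 members, and leaving out 1 library 0 to 7. In the co-cultures an adjusted p under 0.1 alone or DESeq2 gave 2, no filter or the RUVs factor 3, the lane block 0, and leaving out 1 library 0 to 2. Between experiments, the fit of 4 groups called 0 members for PFC minus microglia and 3 for PFC minus co-culture, and its calls over all genes were not counted. The merged heavy chain log2FC ranged from 0.44 to 0.76 in the PFC, 0.052 to 0.13 for microglia and 0.13 to 0.18 for co-cultures when 1 library was left out, and was 0.14 in the co-cultures with the lane block. Few results changed sign. Tap1 in the co-cultures was at −0.028 with the lane block and ranged from −0.042 to 0.032 with 1 library left out, Tapbp there from −0.045 to 0.0079, and with the lane block the PFC minus co-culture difference of H2-T24 was 0.019 and the microglia minus co-culture difference of H2-Q4 was 0.0087. The cause was not tested in any of these.

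The labels do not say that equal replicate numbers mark libraries prepared together. The correlation of same-numbered libraries averaged −0.09 for PFC, −0.02 for microglia and 0.02 for co-cultures. The replicate block keeps only numbers present in both groups, which leaves out sc-control replicate 4 in the PFC. It called 8 members there and gave the merged heavy chains 0.73, and over all genes 475 higher and 43 lower. In the microglia it called 2 members, and 87 genes higher and 162 lower. In the co-cultures it called 1 member (H2-K1, not H2-D1), and 70 genes higher and 23 lower. It turned Tap2 in the microglia to −0.0073, and Tap1 and Tapbp in the co-cultures to −0.044 and 0.016. Pairing the PFC numbers crosswise, chosen after seeing the data, called 9 members, and over all genes 551 higher and 87 lower.

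Of 290 single member values with 1 library left out, 256 kept direction and call, 14 lost the call, 15 gained it and 5 changed sign. In the simulated PFC comparison 54 of 100 genes changed by 0.5 on the log2 scale were recovered, at this depth and with 3 mice a group, and 22 unchanged genes were called. Each gene was drawn on its own, without a deviating library or lane, so the simulation does not cover a library such as sc-control replicate 4.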

Other observations

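H2-T10, a close paralog of H2-T22, was not a member, and its level relative to H2-T22 differed between the experiments. The ratio of their counts was 0.0502 to 0.0642 in the 6 PFC libraries, 1.59 to 1.96 in the 8 microglia libraries and 1.63 to 2.81 in the 15 co-cultures. H2-T10 was at 0.614 to 1.00 CPM in the PFC and at 9.27 to 12.5 CPM in the microglia, while H2-T22 was at 12.2 to 16.2 and 5.82 to 6.94 CPM. The ranges of the PFC libraries and of the cultures did not overlap, and no comparison was fixed for them. The PFC came from C57BL/6J and the cultures from CD1 mice, so strain and tissue cannot be told apart, and the share of reads assigned to the wrong paralog was not tested.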
